A study of Mus musculus with 12 samples.

Results

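Transcription initiation was examined at 10 mouse genes of energy metabolism, 6 isoforms that mark the testis or its germ cells (Slc2a3, Aldoart1, Gapdhs, Ldhc, Cyct and Cox6b2) and 4 general relatives (Aldoa, Gapdh, Ldha and Cycs), of 21924 protein-coding gene symbols in all. A transcriptional regulatory element (TRE) was assigned to a gene when the edge of its dREG peak lay under 1000 bp from any annotated transcription start site (TSS) of that gene. This gave 20 of 71107 peaks in leptonema/zygonema, 21 of 68352 in pachynema and 14 of 38603 in diplonema. Cox6b1 and Slc2a1, which are not among the 10, served as the relatives of Cox6b2 and Slc2a3.

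The peaks came from leChRO-seq, a run-on assay that labels and sequences RNA still held by engaged RNA polymerase in chromatin. Cells of 3 substages of prophase I were enriched by sedimentation (STAPUT) from testes of adult wild-type mice that received no treatment, and 4 libraries were made for each substage. The sources used here do not say how many animals stand behind each library, and the study drew on C57Bl/6J and DBA/2J mice without naming the strain of these samples. dREG, a classifier that recognises initiation from run-on reads, was run by the authors on the merged libraries of a substage, so each substage is represented by 1 pooled list, there is no spread between replicates and no test between substages could be made. The lists hold no read counts, so the number of reads behind a peak is not known from them, and a difference between lists cannot be told apart from a difference in depth or in the mixture of cells. In such enriched fractions fewer cells of a type and less nascent RNA per cell cannot be told apart.

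A dREG score rises with the strength of the initiation signature and is not scaled between lists. The median score of all peaks was 0.586, 0.572 and 0.532 in the leptonema/zygonema, pachynema and diplonema lists. To set genes side by side, each gene was given a promoter percentile, the percent of protein-coding genes with a peak in the same list whose highest peak scored lower. A percentile is therefore a rank within a substage and not an amount of RNA. Where 3 values follow each other without a substage, they stand in the order of leptonema/zygonema, then pachynema, then diplonema, and all positions are on mm10.

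Glycolysis splits glucose into pyruvate, lactate dehydrogenase turns pyruvate and lactate into each other, and cytochrome c and cytochrome c oxidase pass electrons to oxygen in mitochondria. Male germ cells replace several of these enzymes with their own isoforms, some from retrogenes that arose by reverse transcription of an mRNA and others from older gene duplications. Sertoli cells supply lactate to spermatocytes, while sperm depend on glycolysis in the tail to swim. Slc2a3 encodes the glucose transporter GLUT3, which is also prominent in neurons and is the least testis-restricted of the 6 isoforms.

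The substage labels were set against marker genes. Of 7 early prophase genes, 6 had a peak in each of the earlier lists and 5 in diplonema. Rec8, which encodes a meiotic cohesin, had a promoter percentile of 97.35 at first, 55.77 in pachynema and 1.29 by diplonema. Dmc1, the meiotic recombinase, went from 58.41 through 27.08 to 18.28, and Stra8, which acts at meiotic entry, from 24.26 through 15.67 to no peak. Other early genes did not follow this order. Meiob had 93.23, 90.83 and 99.93, Prdm9 had 59.32, 70.85 and 38.68, Spo11 had 58.97, 52.81 and 54.14, and Mei1 had no peak. All 6 genes listed for pachynema had a peak in each list, with median percentiles of 82.79, 76.64 and 91.26. Piwil1, which encodes a PIWI protein, rose at each step, from 26.91 through 62.27 to 98.31. Mybl1, which encodes A-MYB, was highest in pachynema at 62.18, 69.7 and 38.24, and Ccna1, Mns1, Spag6l and Tesmin ranked lower in pachynema than in leptonema/zygonema. The markers therefore followed the labels in part. Peaks at the 4 macrophage genes and at the 4 peritubular and endothelial genes were not called in any list. Sertoli cell genes with a peak numbered 2 of 5 in leptonema/zygonema, 4 of 5 in pachynema and 3 of 5 in diplonema. Gata4 scored highest of these in the earlier lists (0.925 and 0.946) and Sox9 in diplonema (0.564). Amh had no peak. Of 5 Leydig cell genes, Cyp11a1 alone had a peak, in pachynema (dREG score 0.414). Of 5 spermatogonial genes, 4 had a peak in every list, and the median percentile of the 5 was 46.61, 46.88 and 4.89. Kit had 48.7, 46.88 and 4.89 and Dmrt1 had 53.3, 54.17 and 3.93. Zbtb16, with 30.42, 33.64 and 33.73, and Uchl1, with 46.61, 56.17 and 43.0, showed no such fall. Of 6 spermatid genes, 5 had a peak in every list, and the median percentile of the 6 was 30.84, 28.54 and 53.46. Tnp1 had 42.08, 42.37 and 73.97, and Prm1 and Prm2 each had 19.6, 14.7 and 40.25. Acrv1, with 93.09, 93.07 and 66.67, and Spaca1, with 93.51, 86.03 and 89.45, were not higher in diplonema than in leptonema/zygonema. The spermatogonial and spermatid medians thus moved mainly between pachynema and diplonema. In that step Aldoart1, described below, changed by -47.92 points, after -17.37 points in the step before. Slc2a3 rose by 45.04 points in the earlier step and by 16.88 in the later one. Prm1 and Prm2 were represented by peaks that they share. The part of these other cells in the values below was not tested.

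A peak was called near 9 of the 10 genes in at least 1 substage. In leptonema/zygonema 9 had a peak, beside 60.1% of all protein-coding genes. In pachynema 8 had a peak, beside 60.5%, and in diplonema again 8, beside 51.6%. Peaks in all 3 substages were found at 8 of the 10 genes, beside 49.4% of all genes, and Gapdh was the sole gene of the 10 with a peak in leptonema/zygonema only, a pattern shown by 2.9% of all genes. Cox6b2 had no peak in any list, like 35.9% of all genes. When each isoform was set against its relative, a gene without a peak counting as the lower, the isoform was the higher in 3 of 6 pairs in leptonema/zygonema, 4 of 6 in pachynema and 5 of 6 in diplonema. Gapdhs counted as higher in the later lists because Gapdh had no peak there, and Aldoart1 was above Aldoa in diplonema by 1.41 points (scores 0.624 and 0.609). The Aldoa peaks of the later lists lay at an upstream start with a separate gene record, described below. No peak was called in those lists at the other Aldoa starts. With the scores of all peaks of a gene summed in place of the highest score, the numbers of pairs were 3, 3 and 2. Ldha then ranked above Ldhc in each list, Cycs above Cyct and Aldoa above Aldoart1 in diplonema, and Slc2a3 above Slc2a1 already in leptonema/zygonema (55.92 against 45.53).

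**Figure D1:**
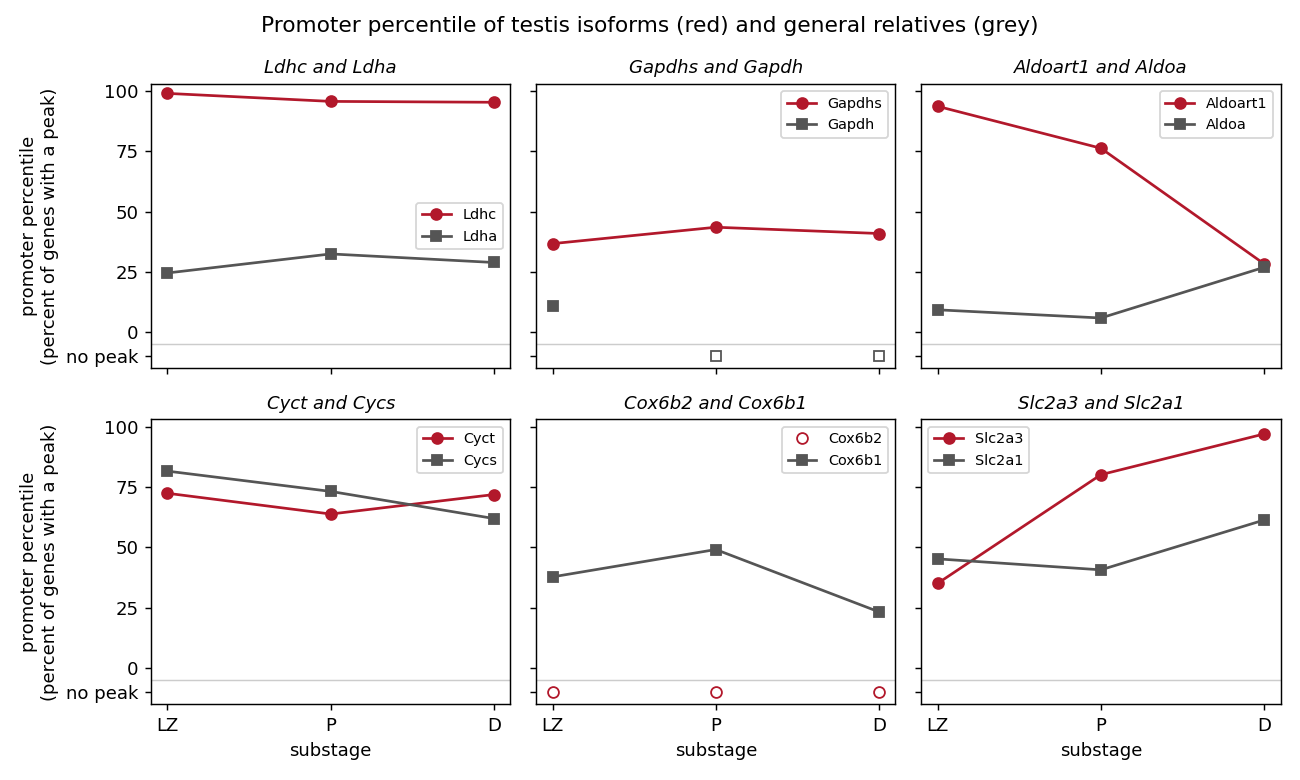
Promoter percentile (vertical axis, percent of protein-coding genes with a peak in the same list) of 6 isoforms (red circles) and their general relatives (grey squares) by substage (LZ, leptonema/zygonema; P, pachynema; D, diplonema), with open symbols for no called peak and 1 pooled list per substage. Ldhc stays above 95 while Ldha lies between 24.56 and 32.45, Aldoart1 descends to 28.32 and Slc2a3 climbs to 96.98.

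By its highest peak, Slc2a3 moved up the ranking at each step. Its highest peak scored 0.904, then 1.215, then 1.236 along the 3 substages. These scores placed it at percentiles of 35.06, 80.1 and 96.98, and 338 genes scored higher in diplonema, against 8556 in leptonema/zygonema. The rise between the first and the last substage was 61.91 points. A rise of at least 50 points was found at 1.73% of the 10907 protein-coding genes with a peak in both lists, in which the median change was -3.38 points and the quartiles were -20.45 and 11.15. With summed scores, which also depend on the number of peaks called (3, 4 and 2 in order of substage), the rise was 16.53 points, made of 39.13 points up to pachynema and a change of -22.6 points from there to diplonema. Slc2a1, the widespread glucose transporter GLUT1, ranked at 45.22, 40.68 and 61.33.

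Slc2a3 has 8 annotated transcripts on the minus strand of chromosome 6, from 122727809 to 122801640 on mm10. All of its peaks lay at the outermost start, the TSS of Slc2a3-202 at 122801640, and no peak lay under 1000 bp from the downstream starts. The highest peak covered chr6:122801281-122802060 in leptonema/zygonema, chr6:122801541-122802100 in pachynema and chr6:122801171-122802120 in diplonema. Further peaks lay inside the gene away from any start, numbering 9, 7 and 3 in the same order of substages. The 150 bases before this start (chr6:122801641-122801790, minus strand) are shown because every start-site peak of the gene lies around them.
Slc2a3: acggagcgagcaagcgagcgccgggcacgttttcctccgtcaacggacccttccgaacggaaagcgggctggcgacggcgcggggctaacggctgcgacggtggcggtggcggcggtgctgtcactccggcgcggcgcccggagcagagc
The 300 bases from 250 before to 50 after this start had 42 CpG dinucleotides, the most of the 12 genes.

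The aldolases split fructose 1,6-bisphosphate. Aldoart1 is a retrogene of Aldoa that is expressed in testis, and its rank went down as prophase advanced. Its highest peak scored 1.32, 1.194 and 0.624 along prophase. Percentiles were 93.61, 76.24 and 28.32, a change of -65.29 points between the first and the last substage, and 5.2% of genes with a peak in both lists fell by at least 50 points. The summed scores gave -52.78 points, and with them Aldoart1 ranked below Aldoa in diplonema (17.52 against 28.37). The Aldoa peaks summed there lay at its upstream start alone. The peak lay over the start of both transcripts in each list, at chr4:72852271-72852970 in leptonema/zygonema, chr4:72852301-72852960 in pachynema and chr4:72852101-72852900 in diplonema. Flanking peaks inside the gene and under 1000 bp from a start were called in leptonema/zygonema (scores 0.466 and 0.558) and in pachynema (0.402 and 0.301). In diplonema 1 peak covered the start and reached over part of the nearer flanking peaks. A further peak inside the gene, farther from the start, was called in leptonema/zygonema (score 0.385). Aldoart2, a second aldolase retrogene, had percentiles of 90.92, 87.95 and 78.16. The Aldoart1 start lies in sequence that is partly repeated elsewhere in the genome. Of the 30-base words within 500 bp of it, 15.95% occurred at another position, and the loss of reads that map to several places was not tested.

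Aldoa, the aldolase of most tissues, had low scores, and the start at which a peak was called differed between lists. In leptonema/zygonema the sole peak (score 0.485, p-value 0.00278) covered chr7:126798931-126799370, over 5 annotated starts that include those of Aldoa-201 at 126799254, which codes for 364 amino acids, and Aldoa-202 at 126799141, which codes for 418. No peak overlapped it in the other lists. In pachynema the sole peak (score 0.397, p-value 0.00449) covered chr7:126809031-126809600, over the upstream start at 126809108. The annotation gives this start to Aldoa-213 and Aldoa-214, which form a separate gene record under the same symbol and have coding sequences of 63 and 138 codons. In diplonema the upstream start again held the highest peak, at chr7:126809031-126809800 (score 0.609, p-value 7.33e-07), with a weaker one beside it (score 0.273). The percentiles were 9.3, 5.91 and 26.91. The leptonema/zygonema peak and the pachynema peak were both lost when a score of at least 0.5 was required or the lists were shortened to equal length, and the diplonema peak was kept.

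The 150 bases before both starts are shown on the minus strand, since the called start differed between substages. They are chr7:126799255-126799404 for Aldoa-201 and chr7:126809109-126809258 for the upstream start. Capitals mark matches to the letters of the MYB (GGCNGTT), RFX (GTTGCNA), GC box (GGGCGG) and CCAAT motifs on either strand.
Aldoa-201 start: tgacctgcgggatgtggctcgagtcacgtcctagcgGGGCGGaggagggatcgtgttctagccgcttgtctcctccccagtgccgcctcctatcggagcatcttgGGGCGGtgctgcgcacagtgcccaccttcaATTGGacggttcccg
Aldoa upstream start: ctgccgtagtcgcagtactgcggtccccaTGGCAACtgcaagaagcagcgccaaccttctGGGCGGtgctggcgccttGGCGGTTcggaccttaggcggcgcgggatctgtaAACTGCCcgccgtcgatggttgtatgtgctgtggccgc
MYB letters occurred 72 and 38 bases before the upstream start, as GGCGGTT and on the other strand as AACTGCC, and RFX letters 121 bases before it. Positions name the base of a match that lies farthest upstream. Neither motif was found in the window of the Aldoa-201 start. MYB letters were present in 13.8% of 14055 promoters of protein-coding genes with a peak, and RFX letters in 11.4%. These are matches of letters and not bound sites.

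**Figure D2:**
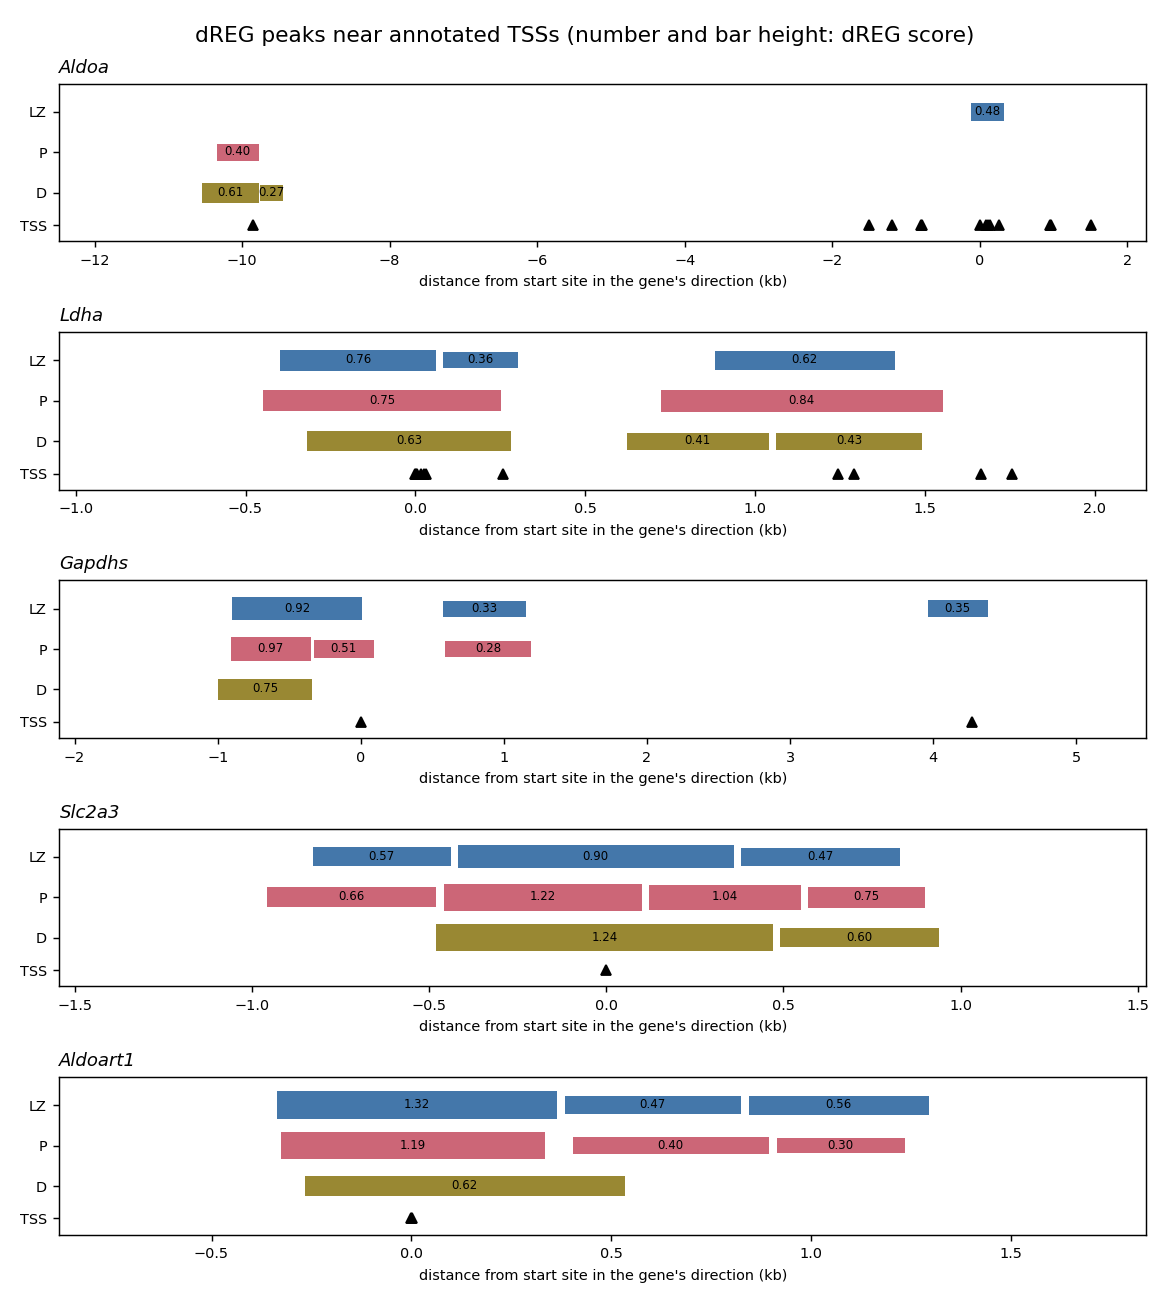
Peaks near annotated starts of Aldoa, Ldha, Gapdhs, Slc2a3 and Aldoart1, by distance in kb from 1 start site of each gene, in the gene's direction (horizontal axis); bars are the peaks of each substage (LZ, leptonema/zygonema; P, pachynema; D, diplonema) with their dREG scores, bar height rises with the score, and triangles are annotated TSSs. The Aldoa bar of LZ lies at the downstream starts and those of P and D at the upstream start, and the Slc2a3 bars lie around the same start in each list.

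Gapdh, glyceraldehyde-3-phosphate dehydrogenase of all tissues, had a peak in leptonema/zygonema (chr6:125165351-125165830, score 0.519, p-value 0.00275) and none in the other lists. That peak ranked at 10.97 and contained 5 annotated starts. No peak remained at Gapdh once each list was shortened to its 38603 highest-scoring peaks. The nearest called peak to the gene lay 14495 bp away in pachynema and 25034 bp away in diplonema. No call at this depth does not show that Gapdh was silent.

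Gapdhs, the isoform that sperm carry bound to the fibrous sheath of the tail, had a peak in each list. Scores of the highest peak were 0.923, 0.968 and 0.753, and the percentiles of 36.71, 43.51 and 40.91 differed by 4.19 points between the first and the last substage. The highest peak was centred 599, 609 and 629 bp upstream of the Gapdhs-203 start at 30743681 on chromosome 7, and its edge reached that start in leptonema/zygonema alone. In pachynema a second peak, of score 0.507, contained the start. A peak of score 0.347 at the Gapdhs-201 start, at 30739407, was called in leptonema/zygonema and not afterwards. Within 500 bp of the Gapdhs-203 start, 58.74% of the 30-base words occurred elsewhere in the genome, the highest share of the 12 genes. The effect of this repetition on the position of the peak was not tested. The window of this start held none of the 7 motifs searched and 4 CpG dinucleotides, the fewest of the 12 genes.

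Ldhc, which encodes the lactate dehydrogenase of spermatocytes and sperm, had the highest percentile of the 10 genes in leptonema/zygonema and in pachynema. Exactly 1 peak was called in each list, scoring 1.408, 1.32 and 1.213. In leptonema/zygonema 134 of 13187 genes with a peak scored higher, in pachynema 570 of 13257 and in diplonema 528 of 11316. The percentiles were 98.96, 95.64 and 95.28, so the gene was already near the top of the ranking in the earliest substage and moved by -3.68 points. The peak kept its place, at chr7:46860741-46861610, chr7:46860771-46861660 and chr7:46860791-46861590, centred 16, 26 and 16 bp upstream of the start at 46861286. Since scores of neighbouring peaks do not add to a gene with 1 peak, its percentiles under summed scores were 35.04, 31.67 and 44.19.

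Ldha, the neighbouring gene on chromosome 7 and the muscle-type subunit of the enzyme, ranked at 24.56, 32.45 and 28.9, which is 74.4, 63.18 and 66.38 points under Ldhc by the highest peak. With summed scores the order turned, and Ldha ranked at 47.38, 40.87 and 56.33, above Ldhc in each list. Its peaks formed groups around 2 start regions. The peak at the upstream starts scored 0.761, 0.749 and 0.63, and the highest at the downstream starts, near Ldha-210 at 46847082, scored 0.616, 0.842 and 0.43. The downstream peak was the higher of the pair in pachynema, and the upstream peak in the other lists. Ldhb, the heart-type subunit, had percentiles of 19.02 and 5.0 and no peak in diplonema. Ldhal6b, a retrogene of the family, ranked at 45.39, 30.37 and 53.79.

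The stretches before the outermost Ldhc start at 46861203 (chr7:46861053-46861202) and the Ldha start at 46845839 (chr7:46845689-46845838), both on the plus strand, are shown because the genes lie side by side and the highest peak of Ldhc ranked far above that of Ldha in each list. Capitals mark the GC box, the CRE motif (TGACGTNA, the letters of a cyclic AMP response element) and the E box (CACGTG).
Ldhc: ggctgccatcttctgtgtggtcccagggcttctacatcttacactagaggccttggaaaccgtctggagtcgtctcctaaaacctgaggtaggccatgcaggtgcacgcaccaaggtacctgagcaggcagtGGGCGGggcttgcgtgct
Ldha: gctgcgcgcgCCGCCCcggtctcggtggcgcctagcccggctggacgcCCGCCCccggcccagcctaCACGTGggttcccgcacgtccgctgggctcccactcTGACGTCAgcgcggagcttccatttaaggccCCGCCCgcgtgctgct
The Ldha stretch held 3 GC boxes, a CRE match 47 bases before the start and an E box, and the Ldhc stretch 1 GC box. GC boxes were present in 61.2% of the 14055 promoters, CRE letters in 5.46% and E boxes in 10.1%.

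By the sum of absolute differences of the percentiles over the 3 lists, the genes most like Ldhc among 10839 others with a peak in every list were Morn5, Ndufa8 and Trim24. Morn5 and Ndufa8, an accessory subunit of mitochondrial complex I, had the same highest peak in each list and the same sum of 1.59 points. Trim24, a transcriptional cofactor, had a sum of 2.2 points. This likeness rests on 3 values per gene.

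Cyct and Cycs encode the testis and the somatic cytochrome c. Cyct scored 1.185, 1.125 and 1.008, with percentiles of 72.4, 63.8 and 71.88. The highest Cyct peak contained the start at 76360450 on chromosome 2 in each list and was joined downstream by another, scoring 0.814 and 0.954, in the earlier lists, whereas diplonema had 1 peak of 850 bp. Cycs scored 1.236, 1.178 and 0.936, with percentiles of 81.58, 73.17 and 61.93. The percentile of Cyct minus that of Cycs was -9.18 and -9.37 points in the earlier lists and 9.95 points in diplonema. The direction in diplonema turned with summed scores, under which Cyct ranked at 57.86, 60.72 and 33.99 and Cycs at 81.53, 92.27 and 69.91. It turned the other way in the earlier lists when peaks shared with another gene were left out, since Cycs then had no peak and Cyct ranked at 77.12, 70.63 and 77.05. In the other pairs with a peak at both genes in leptonema/zygonema, the general relative ranked under 50 there. The Cycs peaks also lay under 1000 bp from a start of 5430402O13Rik and cannot be given to 1 gene, whereas no other gene had a start that close to the peaks of the other members. The Cyct stretch (chr2:76360451-76360600, minus strand) is shown for the isoform, with a CCAAT match 12 bases before the start in capitals.
Cyct: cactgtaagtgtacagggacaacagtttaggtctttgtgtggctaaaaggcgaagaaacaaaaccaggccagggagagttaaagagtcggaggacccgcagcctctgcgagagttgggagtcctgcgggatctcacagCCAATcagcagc
CCAAT was present in 38.1% of the promoters.

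Cox6b2 and Cox6b1 encode the testis and the general form of a cytochrome c oxidase subunit. No peak was called at Cox6b2, and the nearest peak to the gene lay 11412 bp away in leptonema/zygonema, 11452 bp in pachynema and 11462 bp in diplonema. Cox6b1 scored 0.935, 1.021 and 0.566, with percentiles of 37.76, 49.1 and 23.25. Around Cox6b2, none of the 30-base words within 500 bp of its outermost start occurred elsewhere in the genome.

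The same question was put to 8 further germ-cell isoforms and their relatives. The pairs were Pgk2 and Pgk1, Pdha2 and Pdha1, Aldoart2 and Aldoa, Eno4 and Eno1, Slc25a31 and Slc25a4, Cox7b2 and Cox7b, Cox8c and Cox8a, and Ldhal6b and Ldhb. The isoform was the higher in 8 of 8 pairs in leptonema/zygonema, 8 of 8 in pachynema and 7 of 8 in diplonema. With summed scores, a check added after seeing the data, these numbers were 6, 5 and 7. The counts by the highest peak include pairs whose relative had no peak, which were Cox8a in leptonema/zygonema and Cox7b and Ldhb in diplonema. They also depend on the relative taken. Set against Ldha in place of Ldhb, Ldhal6b was the lower in pachynema (30.37 against 32.45) and the higher in the other lists. Pgk2, the phosphoglycerate kinase retrogene, went from 73.2 through 89.78 to 99.31, while Pgk1, its parent gene, went from 70.31 through 52.35 to 39.45. Cox8c had percentiles of 43.79, 97.92 and 99.91, against no peak, 4.41 and 6.95 for Cox8a. Cox7b2 ranked at 77.24, 83.17 and 93.51, and Cox7b at 32.13 and 12.41 with no peak in diplonema. The relatives Pgk1, Pdha1 and Cox7b lie on the X chromosome, as does Slc25a5, given below, while their isoforms lie on autosomes. The paper describes an inactivation of the sex chromosomes that arises as spermatocytes enter pachynema. Its part in the ranks of these pairs was not tested.

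Pdha2, a retrogene for a pyruvate dehydrogenase subunit, had percentiles of 46.47, 80.1 and 94.55, above Pdha1 at 35.25, 44.18 and 71.88. Slc25a31, the germ-cell ADP/ATP carrier, had 63.55, 70.85 and 80.26, above its relatives Slc25a4 at 26.65, 40.79 and 54.97 and Slc25a5 at 37.98, 42.72 and 64.28. Eno4, an enolase of the sperm tail, had 95.01, 99.93 and 94.16, and Eno1, the general enolase, climbed from 43.38 through 61.54 to 97.63. This was the exception among the 8 pairs in diplonema.

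Across the whole pathway, 78 genes were listed from textbook knowledge. Peaks in all 3 substages were found at 51, beside 49.4% of all protein-coding genes, in 2 substages at 9, in 1 substage at 3 and in none at 15. The genes with a peak in 1 substage were Gapdh, Cox5b and the glucose transporter Slc2a8, each in leptonema/zygonema and at percentiles of 10.97, 3.16 and 1.98. Of the 32 glycolysis genes, 25, 25 and 22 had a peak (78.1%, 78.1% and 68.8%, beside 60.1%, 60.5% and 51.6% of all genes), with median percentiles of 29.34, 37.98 and 29.04 when genes without a peak were placed below the rest. The same medians over all protein-coding genes were 16.9, 17.32 and 3.17. Tpi1, triosephosphate isomerase of all tissues, had no peak in any list. Of the 20 cytochrome c and cytochrome c oxidase genes, 14, 14 and 13 had a peak (70.0%, 70.0% and 65.0%), with medians of 29.23, 28.68 and 34.61. Of the 15 hexose and lactate transport genes, 11, 10 and 7 had a peak (73.3%, 66.7% and 46.7%), the last of these below the share of all genes. The medians of this list were 27.93 and 22.71, and in diplonema the median gene had no peak. All 11 genes of pyruvate entry and ATP exchange had a peak in each list, and their medians were 61.85, 67.68 and 80.26.

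Of the 51 pathway genes with a peak in leptonema/zygonema and in diplonema, 6 rose by at least 50 points and 2 fell by as much, beside 1.73% and 5.2% of all genes with a peak in both lists. Those that rose were Slc2a3, Pfkp by 73.43 points, the fructose transporter Slc2a5 by 60.5, Cox8c by 56.12, Eno1 by 54.25 and Pgam2 by 51.02. Those that fell were Aldoart1 and Pkm, the pyruvate kinase of most tissues, which changed by -76.22 points. Pfkp, Pgam2, Slc2a5 and Pkm were chosen after their values were seen. Pfkp and Eno1 are expressed in many tissues, so the genes that rose were not all germ-cell isoforms.

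**Figure D3:**
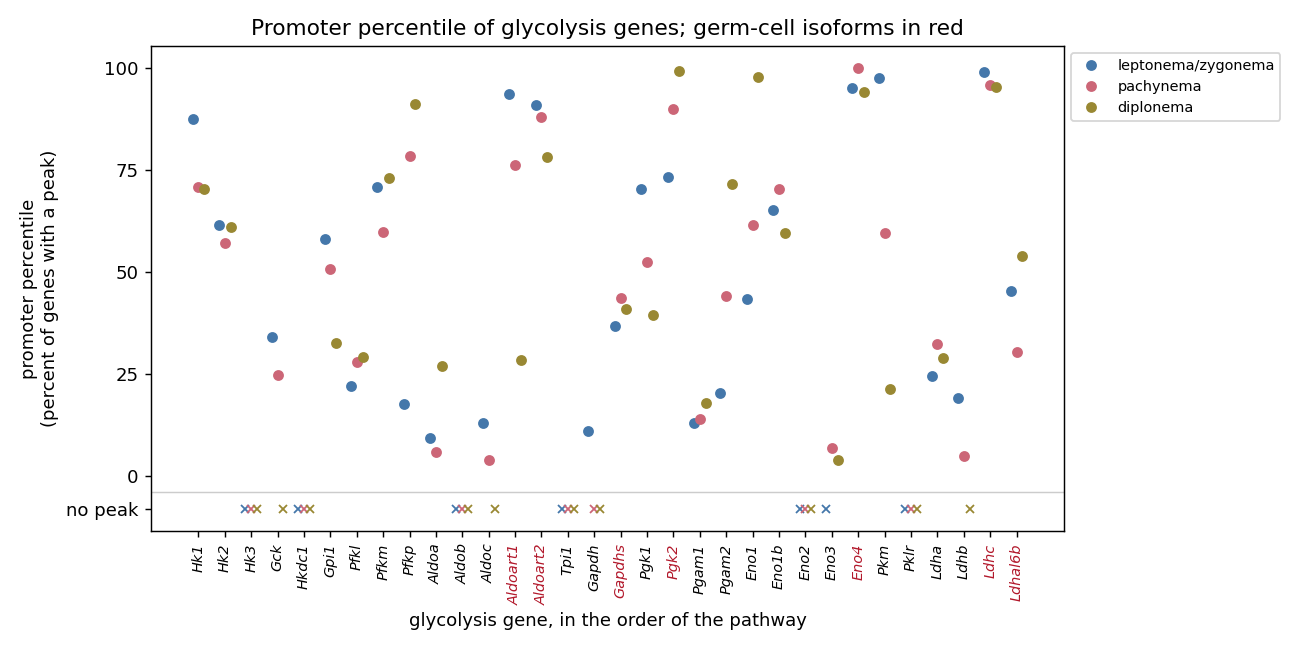
Promoter percentile (vertical axis, percent of protein-coding genes with a peak in the same list) of 32 glycolysis genes in the order of the pathway (horizontal axis), germ-cell isoforms named in red; points are substages and crosses mark no called peak. Ldhc and Eno4 lie above 94 in each list, Pgk2 and Eno1 climb to 99.31 and 97.63 in diplonema, and Pkm descends from 97.53 to 21.31.

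The promoters of the testis isoforms were poorer in CpG than those of most genes, Slc2a3 apart. The 300-base window was set at the start nearest the gene's highest peak in leptonema/zygonema, or in the next list for a gene without a peak there. For Cox6b2, which had no peak, the outermost start was taken, and for Aldoa and Ldha the windows are not at the start that scored highest over all lists. The median of 14055 promoters was 20 CpG dinucleotides (quartiles 11.5 and 29) and 60.67% GC (quartiles 53.67 and 67.67). Ldhc had 10 CpG, Aldoart1 8, Cyct 8, Cox6b2 10 and Gapdhs 4, each under the lower quartile. Ldha had 31, Cycs 35, Aldoa 23, Cox6b1 15, Slc2a1 14 and Gapdh 12. Each isoform but Slc2a3 had fewer CpG than its relative. Ldhc with 10 CpG ranked between 95.28 and 98.96. Slc2a3 with 42 ranked at 35.06 in leptonema/zygonema and at 96.98 in diplonema, and Gapdhs with 4 ranked between 36.71 and 43.51. The Gapdhs window does not reach the centre of its highest peak. A relation of CpG number to rank over all promoters was not tested. The letters TATAAA of a TATA box, present in 4.2% of promoters, were found at none of the 12 genes. Within these windows, MYB letters were found at the Aldoa upstream start and 14 bases after the Slc2a3 start, and at no other start of the 12 genes examined.

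**Figure D4:**
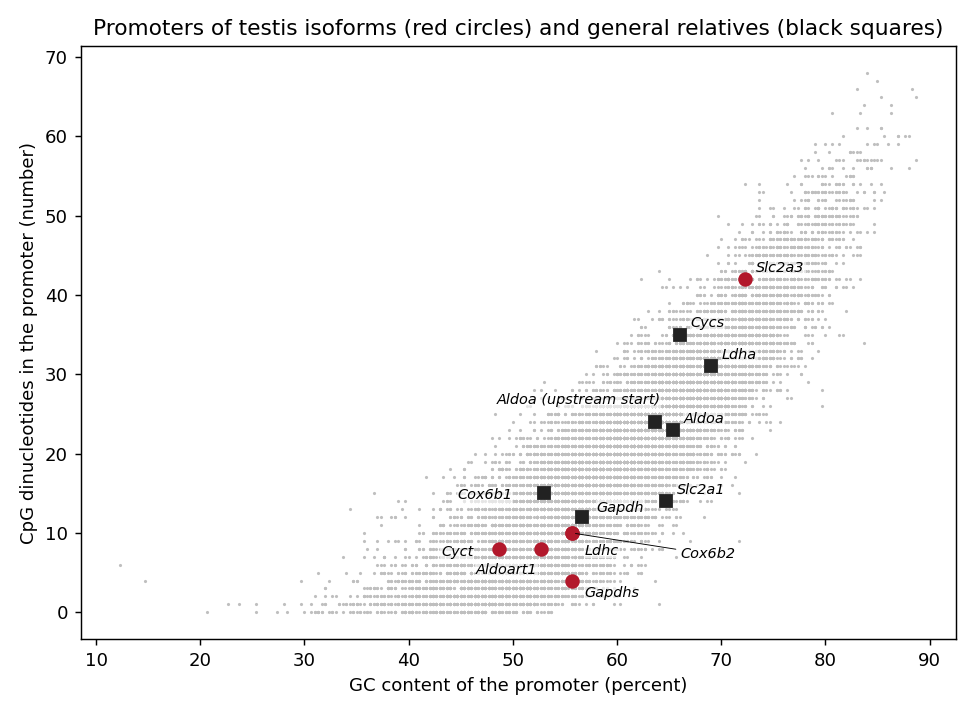
Number of CpG dinucleotides (vertical axis) against GC content in percent (horizontal axis) of 300-base promoters; grey points are 14055 protein-coding genes with a peak, red circles the testis isoforms and black squares the general relatives. The isoforms other than Slc2a3 lie at 10 CpG or fewer, and Slc2a3 lies at 42.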

How the data were processed

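leChRO-seq libraries of 3 substages, 4 each, were analysed through 3 deposited peak lists on mm10. The authors removed duplicates with PRINSEQ lite, trimmed with cutadapt, used BWA for mapping to mm10 with an added ribosomal RNA unit, merged libraries per substage and ran dREG with default settings. The authors deposited a dREG score and a p-value for each peak, all at or under 0.05. The sources used here do not say whether the p-value is adjusted, and no reads were counted here. Starts were those of GENCODE M21 (mm10), sequences those of GRCm38, and 32851 of 32851 RefSeq promoters were identical to the extracted bases. A gene took its highest peak score, ranked among protein-coding genes with a peak, ties counted as 50%. Named were all 10 genes, fixed isoform pairs, pathway genes with a peak in 1 substage and the 3 genes most like Ldhc. The members and lists were chosen with earlier results of these data known. Alternatives were other start distances (500 or 2000 bp, or the start inside the peak), a score of at least 0.5, a p-value of at most 0.01, lists of equal length, starts of protein-coding transcripts, summed scores, a rank among all peaks, and leaving out shared peaks. Steps gave 0 wrong answers in 144000 simulated start distances, 1000 percentiles, 700 planted motifs and 3420 words. Tools were pysam 0.24.0, matplotlib 3.10.9, pandas 2.3.3, numpy 2.4.6, scipy 1.17.1 and Python 3.11.15.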

Additional observations from a re-analysis of the deposited data

How the results depend on the processing

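Of the 90 recomputed counts of genes with a peak and of pairs, 87 stayed within 1.5 times the reported count. With lists of equal length, 2 general relatives had a peak in leptonema/zygonema in place of 4, because the shortened list leaves out the low-scoring peaks of Gapdh and Aldoa. With summed scores, 2 pairs had the higher isoform in diplonema in place of 5. Ldhc, Cyct and Aldoart1 then ranked below their relatives there, Aldoa through peaks at its upstream start. Ldha ranked above Ldhc in each list. Of the 8 further pairs, 5 then had the higher isoform in pachynema in place of 8, an alternative chosen after seeing the data. Of the 674 recomputed percentiles and changes of percentile, 397 stayed within the tolerance, 255 moved and 22 changed sign. The tolerance was 1.25 points for a change and a 95% interval for a percentile. With 1 pooled list per substage, that interval holds no spread between replicates. Ranked among all peaks, percentiles refer to another set of values, which by itself moves them.

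Where the peak had to contain the start, Gapdhs changed by -26.09 points between leptonema/zygonema and pachynema. Between leptonema/zygonema and diplonema, a score of at least 0.5 gave -1.48 for Gapdhs and -2.56 for Ldha, and a rank among all peaks -3.71 and -4.42. That rank also gave -0.13 for Cyct between pachynema and diplonema. Lists of equal length gave 0.25 for Ldhc, 5.19 for Gapdhs and 5.76 for Ldha between pachynema and diplonema, and 3.39 for Cyct between leptonema/zygonema and diplonema. Summed scores turned 12 changes. Between leptonema/zygonema and pachynema they gave 2.86 for Cyct, -6.51 for Ldha, 10.74 for Cycs, -9.4 for Cox6b1 and 27.99 for Slc2a1. Between pachynema and diplonema they gave 12.52 for Ldhc, -26.73 for Cyct, -22.6 for Slc2a3, 15.46 for Ldha and -7.72 for Slc2a1. Over both steps they gave 9.15 for Ldhc and -18.66 for Gapdhs. The cause of these turns was not tested.

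No paired analysis was possible because the peaks were called on merged libraries and the 3 lists name no replicate. A list without 1 of its libraries does not exist among the data used. Without read counts, every statement is limited to whether a peak was called and how it ranked.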
